A study of Homo sapiens with 32 samples.

Results

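Notch, Hedgehog and FGF are signalling pathways that pass between neighbouring cells of the developing gut and pancreas. Their genes were taken from the table by their symbols (Notch ligands, receptors, processing enzymes and HES/HEY targets, Hedgehog ligands, receptors and GLI factors, FGF ligands, receptors and feedback genes), with antisense genes dropped. This gave 52 of 7978 genes (19 Notch, 12 Hedgehog and 21 FGF), which carried 199 of 26104 merged m6A peaks (79, 61 and 59). Another 46 protein-coding genes with such a symbol, among them DLL3, DLK1, HHIP, FGF13 and ETV1, were not analysed here. Every gene described therefore carries at least 1 peak called by the authors, and its level is that of its peak regions. Human embryonic stem cells (hESC) of the lines H1 and MEL1, which differ in genetic background, were harvested undifferentiated (S0) and after directed differentiation to the stages labelled S3 (posterior foregut), S4 (pancreatic progenitors) and S6 (immature β-like cells). Each of the 8 combinations of line and stage had 2 replicates, described by the study as independent biological samples, and each of the 16 RNA preparations gave an input library and an m6A immunoprecipitation (IP) library, 32 in all. The culture media of both lines held agents aimed at these pathways. FGF7 was given up to and including S4. SANT-1, an antagonist of the Hedgehog transducer SMO, was part of the S3, S4 and S5 media. GSiXX, a γ-secretase inhibitor, which blocks the cleavage that activates Notch, was given in the earlier but not the later part of S6. S0 cells were harvested before any of these was added. They came from culture in Essential 8 medium, whose components, FGF among them or not, the study does not list.

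In Notch signalling, a DLL or JAG ligand on 1 cell activates a NOTCH receptor on its neighbour, γ-secretase releases the intracellular domain, and this domain joins RBPJ and a MAML coactivator on genes such as HES1. In the pancreas Notch is known for holding progenitors back from the endocrine fate. Hedgehog ligands relieve the inhibition of SMO by PTCH1 and so turn GLI factors into activators, and sonic hedgehog is known to be kept out of the pancreatic bud. FGF ligands act through FGFR tyrosine kinases and the adaptor FRS2 on ERK, which induces its own inhibitors (SPRY, SPRED and DUSP6) and the ETS factors ETV4 and ETV5, and FGF signals from the mesenchyme expand pancreatic progenitors. m6A is a methyl mark on adenosines of mRNA that bears on how long a transcript lasts and how it is translated.

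The input libraries held 2652830 to 6879256 counted reads (median 4318760) and the IP libraries 2378881 to 15674899 (median 13100407), of which the pathway genes took 0.186% to 0.445% and 0.467% to 0.954%. Input levels are given as CPM (counts scaled to a common library size) summed over the merged peaks of a gene. For the pathway genes the library size was adjusted by TMM. Values of cell type markers were scaled to counted reads alone, so gaps between lines in them depend on the scaling. Levels of the pathway genes can be compared between libraries but not between genes, since the covered length is not known. Several libraries stood apart. The MEL1 S4 IP libraries held 2483580 and 2378881 reads, and mitochondrial transcripts took 0.0465% and 0.0510% of the H1 S4 IP libraries but 0.388% to 2.25% of the other 14. Of the input libraries they took 11.6% to 41.0%, with 41.0% and 32.5% in MEL1 S0, 26.4% and 27.0% in H1 S0, 15.3% and 12.9% in MEL1 S3, 26.8% and 27.5% in H1 S3, 15.8% and 16.4% in MEL1 S6 and 11.6% and 11.8% in H1 S6, and the part of this share in the stage and line comparisons was not tested. The lines also differed in the markers of other cell types. Summed over the 4 measured of 6 liver-type markers (AFP, APOA1, APOB and VTN), H1 held 459.9 and 466 CPM at S3 against 29656 and 31382 in MEL1, 201 and 232 at S4 against 56142 and 59203, and 106 and 118 at S6 against 2608 and 2672. For the 3 measured of 5 neural markers (NES, SOX1 and STMN2) the sum was 2549.9 and 2609.7 in H1 S3 and 36.5 and 43.4 in MEL1 S3, where SOX1 and STMN2 were at 0, and 2745 and 2749 in H1 S6 and 513 and 548 in MEL1 S6. The sum was already 1022 and 1037 in H1 S0 and 1459 and 1633 in MEL1 S0. Most of it was NES, at 2529 and 2590 in H1 S3, so it is no sure sign of neural cells. The 6 posterior foregut markers rose to 1040.3 and 1084 in H1 S3 and 2865 and 3038 in MEL1 S3 from 13.5 and 13.6 in H1 S0 and 10.6 and 12.7 in MEL1 S0. PDX1, the master factor of the pancreas, reached 37.8 and 30.2 CPM in H1 S3 and 30.7 and 26.5 in MEL1 S3, and stood at 3.82 and 2.78 in H1 S6 and 60.4 and 52.2 in MEL1 S6. The endocrine granule gene CHGA stood at 1024 and 985 in H1 S6 and 648 and 658 in MEL1 S6. INS, NEUROD1 and NKX6-1 were not analysed here. In bulk RNA, fewer cells of a type and less RNA per cell cannot be told apart, and what these mixtures contribute to the pathway genes was not tested.

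More pathway genes were called at S3 and S6 against S0 than from S3 to S4 or from S4 to S6, as was so of all genes (2295 and 2500 called against 147 and 413). All 52 genes passed the filter on low counts. The thresholds for a call were 0.1 for the adjusted p and 2 for the fold change (edgeR, with line as a covariate). From S0 to S3, 12 of the 52 genes rose (23.1%), where 15.0% of all 7973 genes tested rose, and 12 fell (23.1%), where 13.8% of all genes fell. From S3 to S4, 5 rose (9.62%, against 1.49% of all genes) and 0 fell (0.351% of all genes). With DESeq2, 8 rose and 0 fell, beside 247 and 50 of all genes. At an unadjusted p under 0.05 in either direction stood 15 of 52, a count not set against all genes. Of the same step, 1 gene was called with no cell line in the model (28 of all genes) and 1 with the strongest peak of each gene alone (106 of all genes). With 1 library left out, 1 to 3 were called. From S4 to S6, 2 rose (3.85%, against 2.85%) and 1 fell (1.92%, against 2.33%). Over the whole course from S0 to S6, 20 rose (38.5%, against 17.5%) and 4 fell (7.69%, against 13.8%). The median log2 change of the 52 genes was 0.41, 0.58, 0.11 and 0.87 in these comparisons, and that of all genes stayed between -0.031 and 0.028. By pathway, S6 against S0 gave 8 risen of 19 Notch genes, 6 risen and 1 fallen of 12 Hedgehog genes, and 6 risen and 3 fallen of 21 FGF genes, with medians of 0.99, 1.08 and -0.075. These counts are descriptive, and whether the pathway genes differ as a set from other genes was not tested.

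**Figure D1:**
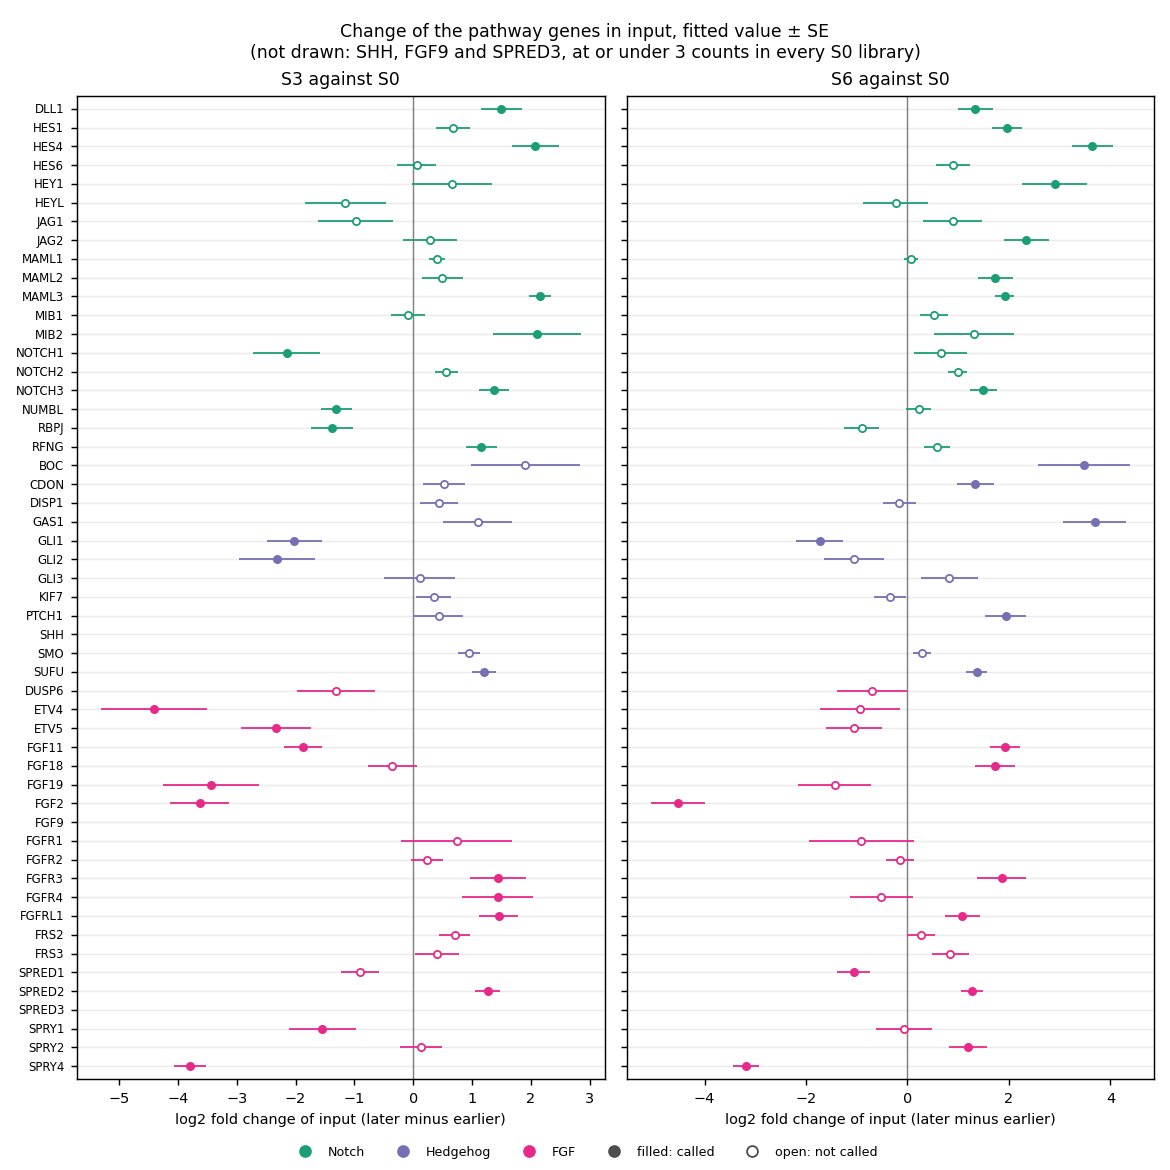
Fitted log2 fold change (± SE) of the pathway genes in input at S3 and at S6 against S0, with 4 input libraries per stage and line as a covariate. Filled points passed the test. At S6 most Notch and Hedgehog genes lie to the right of 0, while FGF2, SPRY4 and GLI1 lie well to the left at both stages. SHH, FGF9 and SPRED3 are not drawn because every S0 library held at most 3 counts.

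Among the Notch ligands, DLL1 stood at 15.7 and 16.4 CPM at S0, 52 and 51.9 at S3, 83.9 and 60.1 at S4 and 31.3 and 29.3 at S6 in H1. DLL1 in MEL1 stood at 3.91 and 9.36 CPM at S0, 15.8 and 16.2 at S3, 10.1 and 15.5 at S4 and 20.2 and 22.2 at S6. DLL1, which marks cells that send the Notch signal, rose at S3 (log2 fold change 1.50 ± 0.35 (SE), adjusted p = 0.00312) and was still higher at S6 than at S0 (1.34 ± 0.35 (SE), adjusted p = 0.00633), with no overlap of S6 and S0 libraries. Every later library lay above the S0 libraries of its own line. JAG2 stood at 2.66 and 3.87 CPM at S0, 4.53 and 4.74 at S3, 5.68 and 14.7 at S4 and 11.2 and 11.5 at S6 in H1. JAG2 in MEL1 stood at 1.44 and 2.83 CPM at S0, 1.0 and 2.93 at S3, 9.24 and 9.22 at S4 and 11.2 and 20.2 at S6. JAG2, a ligand of the same family as JAG1, rose from S3 to S4 (1.58 ± 0.43 (SE), adjusted p = 0.094) and stood above S0 at S6 (2.34 ± 0.44 (SE), adjusted p = 0.000598). The S4 step was lost when any 1 of 7 of the 8 libraries was left out (log2 change 1.29 to 1.75), the exception being H1 S4 replicate 1. JAG1 stood at 51.2 and 38.7 CPM at S0, 68.6 and 67.8 at S3, 127 and 139.5 at S4 and 81.9 and 81.6 at S6 in H1. JAG1 in MEL1 stood at 107 and 91.6 CPM at S0, 5.76 and 11.7 at S3, 95.4 and 85.9 at S4 and 187 and 186 at S6. JAG1, the ligand tied to bile duct and pancreatic duct formation, was not called in any comparison of stages. At S3 its MEL1 values lay below, and its H1 values above, those of S0 in the same line.

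The receptors did not move together. NOTCH1 stood at 99.5 and 113 CPM at S0, 54.4 and 48.8 at S3, 81.7 and 79 at S4 and 109.6 and 104 at S6 in H1. NOTCH1 in MEL1 stood at 87.4 and 122 CPM at S0, 5.51 and 6.77 at S3, 22.7 and 42 at S4 and 173 and 231 at S6. NOTCH1 fell from S0 to S3 (-2.15 ± 0.57 (SE), adjusted p = 0.00757) and rose from S4 to S6 (1.70 ± 0.56 (SE), adjusted p = 0.0879), and its S6 level did not pass the test against S0 (0.65 ± 0.53 (SE), adjusted p = 0.341). The rise to S6 was lost in 6 of the 8 fits that left out a library (log2 change 1.33 to 1.80), the exceptions being H1 S6 replicates 1 and 2. It was also lost with no cell line in the model (1.45, adjusted p = 0.289) and with the strongest peak alone (1.89, adjusted p = 0.137), and the change was 0.41 in H1 and 2.63 in MEL1. NOTCH3 stood at 118 and 117 CPM at S0, 253 and 243 at S3, 306 and 227 at S4 and 190.2 and 199.6 at S6 in H1. NOTCH3 in MEL1 stood at 58.2 and 87.5 CPM at S0, 239.7 and 259 at S3, 284 and 361 at S4 and 317 and 389 at S6. NOTCH3, a receptor known from mesenchymal and vascular cells, rose at S3 (1.38 ± 0.26 (SE), adjusted p = 0.000597) and was higher at S6 than at S0 (1.49 ± 0.26 (SE), adjusted p = 0.0003), with no overlap between S0 and either stage. NOTCH2 stood at 72 and 66.4 CPM at S0, 146 and 128 at S3, 134 and 142 at S4 and 142 and 148 at S6 in H1. NOTCH2 in MEL1 stood at 79.8 and 84.2 CPM at S0, 96.6 and 85.1 at S3, 101 and 78.2 at S4 and 169 and 143 at S6. NOTCH2 shares sequence with the NOTCH2NL genes, so its counts are uncertain, and its change at S6 passed the p threshold but stayed just short of 2-fold (0.99 ± 0.19 (SE), adjusted p = 0.000825).

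The RBPJ and MAML proteins form the nuclear complex of the pathway. MAML3 stood at 23.7 and 26.4 CPM at S0, 140.1 and 149 at S3, 130.1 and 137 at S4 and 97.8 and 109.8 at S6 in H1. MAML3 in MEL1 stood at 26.9 and 25.2 CPM at S0, 83.3 and 88.7 at S3, 161 and 150.5 at S4 and 84.8 and 95.6 at S6. MAML3, a coactivator of the complex, had the smallest adjusted p of the Notch genes, at S3 (2.15 ± 0.19 (SE), adjusted p = 6.23e-07) and at S6 (1.92 ± 0.19 (SE), adjusted p = 1.45e-06), and the 12 libraries of S3, S4 and S6 all lay above the 4 of S0. MAML2 rose over the whole course (1.73 ± 0.35 (SE), adjusted p = 0.000904), from 5.31 and 5.0 CPM in H1 S0 and 9.05 and 9.36 in MEL1 S0 to 20.6 and 14.8 in H1 S6 and 33.2 and 27.8 in MEL1 S6. MAML1 did not reach 2-fold in any comparison and stood between 179 and 270.5 CPM in all 16 libraries. RBPJ stood at 73.9 and 61.6 CPM at S0, 49.9 and 46.3 at S3, 54.8 and 73 at S4 and 59.5 and 55.1 at S6 in H1. RBPJ in MEL1 stood at 185 and 150.2 CPM at S0, 45.5 and 36.6 at S3, 26.1 and 31.7 at S4 and 75.1 and 60.5 at S6. RBPJ, the DNA-binding partner of every cleaved NOTCH receptor, fell at S3 (-1.39 ± 0.35 (SE), adjusted p = 0.00598). Its S6 change was short of 2-fold (-0.90 ± 0.35 (SE), adjusted p = 0.0466).

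HES and HEY genes encode the repressors that Notch induces, and 3 of the 5 measured rose from S0 to S6, where 17.5% of all genes rose. HES1 stood at 45.4 and 40.7 CPM at S0, 83 and 79.1 at S3, 107 and 88.6 at S4 and 101 and 94.4 at S6 in H1. HES1 in MEL1 stood at 36 and 28.3 CPM at S0, 37.8 and 43.3 at S3, 67.2 and 78.9 at S4 and 197 and 176 at S6. HES1 rose over the whole course (1.96 ± 0.30 (SE), adjusted p = 0.0001) and did not reach 2-fold at S3 (0.67 ± 0.29 (SE), adjusted p = 0.0765). HES4 stood at 2.66 and 2.05 CPM at S0, 10.4 and 6.59 at S3, 18.3 and 12.1 at S4 and 16.7 and 24.9 at S6 in H1. HES4 in MEL1 stood at 1.03 and 0.871 CPM at S0, 3.50 and 6.99 at S3, 11.3 and 23.2 at S4 and 17.9 and 21.4 at S6. HES4 rose at S3 (2.07 ± 0.40 (SE), adjusted p = 0.00084), again at S4 (1.26 ± 0.35 (SE), adjusted p = 0.0975), and had the largest S6 change of the Notch genes (3.64 ± 0.40 (SE), adjusted p = 5.31e-06). The S4 step was lost when any 1 of 7 of the 8 libraries was left out, the exception being H1 S4 replicate 2 (log2 change 0.91 to 1.46). HEY1 rose from 0.966 and 0.455 CPM in H1 S0 and 2.67 and 2.61 in MEL1 S0 to 13.1 and 11.2 in H1 S6 and 14.6 and 13.7 in MEL1 S6 (2.90 ± 0.65 (SE), adjusted p = 0.00211). HES6, an inhibitor of HES1 that is known from endocrine and neural precursors, stood at 13.8 and 12.5 CPM in H1 S0, 25.9 and 22.3 in H1 S6, 3.91 and 10.2 in MEL1 S0 and 10.5 and 16.1 in MEL1 S6, a change short of 2-fold (0.89 ± 0.33 (SE), adjusted p = 0.0394). HEYL was called in no comparison of stages and is described with the lines. It stood at 12.3 and 6.09 in MEL1 S0 against 1.0 and 0.451 in MEL1 S3.

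Promoter sequence is shown for HES1, which rose, and HEYL, whose change differed between the lines (RefSeq, GRCh38.p14, the 250 bases before a transcription start, on the strand of the gene). Starts of 43 of the 52 genes were matched (72 of 35116 promoters). RBPJ binds DNA that holds the letters TGGGAA, which stood on either strand in 20.8% of all promoters and in 10 of the 72, those of 9 genes (BOC, CDON, FGF11, FGFR2, HES1, HES4, HEYL, RBPJ and SPRY1). The promoter of HES1 lies at chr3:194135898-194136147 on the plus strand and that of HEYL at chr1:39639644-39639893 on the minus strand, with the letters in capitals (TTCCCA is the same word on the other strand).
HES1: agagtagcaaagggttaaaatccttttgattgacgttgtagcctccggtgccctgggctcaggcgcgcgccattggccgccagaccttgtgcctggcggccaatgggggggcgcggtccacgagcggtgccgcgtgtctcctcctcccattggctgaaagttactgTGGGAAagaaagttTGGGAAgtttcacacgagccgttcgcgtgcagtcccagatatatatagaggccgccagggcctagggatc
HEYL: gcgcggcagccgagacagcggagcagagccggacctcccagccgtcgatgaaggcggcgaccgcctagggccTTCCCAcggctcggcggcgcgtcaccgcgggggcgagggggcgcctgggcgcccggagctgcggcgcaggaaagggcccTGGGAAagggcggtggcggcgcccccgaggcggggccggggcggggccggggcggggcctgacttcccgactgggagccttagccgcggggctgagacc
HES1 held the word on the gene's strand at 84 and 70 bases before the start, and HEYL held it once on each strand, at 178 and 99 bases. The letters are a description of these windows and not a test of binding.

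The remaining Notch genes modify ligands or receptors. RFNG, which adds sugars to NOTCH, rose at S3 (1.16 ± 0.26 (SE), adjusted p = 0.00251), and without MEL1 S0 replicate 1 the change was 0.92. MIB2, a ubiquitin ligase that acts on ligands, rose at S3 from at most 2.27 CPM at S0 (2.10 ± 0.74 (SE), adjusted p = 0.0349), a call that was lost without MEL1 S0 replicate 2 (log2 change 1.78). NUMBL, an inhibitor of Notch receptors, fell at S3 (-1.31 ± 0.26 (SE), adjusted p = 0.00111) and rose at S4 (1.13 ± 0.27 (SE), adjusted p = 0.0484). The S4 step was lost without any 1 of the 4 MEL1 libraries (log2 change 0.91 to 1.06) and was 0.42 in H1 alone. MIB1, the main ubiquitin ligase of Notch ligands, was not called in any comparison of stages.

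The ligand SHH and the receptor PTCH1 rose from S0 to S6, and GLI1 fell. SHH held 0 counts in all 4 S0 libraries. SHH stood at 3.15 and 3.30 CPM at S3, 1.98 and 2.74 at S4 and 2.66 and 1.98 at S6 in H1. SHH in MEL1 stood at 0 and 1.13 CPM at S3, 6.72 and 10.7 at S4 and 6.35 and 8.47 at S6. Against a floor of 3 counts per S0 library its mean level was at least 2.83-fold higher at S3, at least 8.27-fold higher at S4 and at least 7.27-fold higher at S6, and the edgeR test passed at S3 (adjusted p = 0.00688) and at S6 (adjusted p = 0.0015). The MEL1 S3 values were the lowest of the later stages and those of MEL1 S4 and S6 the highest. PTCH1 stood at 7.73 and 5.91 CPM at S0, 17.3 and 15 at S3, 28.1 and 45.5 at S4 and 26.5 and 23.4 at S6 in H1. PTCH1 in MEL1 stood at 5.35 and 5.01 CPM at S0, 4.50 and 2.26 at S3, 8.40 and 10.3 at S4 and 16.1 and 24.6 at S6. PTCH1, the receptor that SHH silences and itself a GLI target, rose over the whole course (1.93 ± 0.41 (SE), adjusted p = 0.00147), with no overlap of S6 and S0. SMO, the signal transducer, changed by less than 2-fold over both lines in every comparison, the largest being S3 against S0 (0.94 ± 0.18 (SE), adjusted p = 0.000843). Its log2 change at S3 was 1.24 in H1 and 0.63 in MEL1, with 113 and 113 CPM in H1 S0, 267 and 267 in H1 S3, 70.3 and 106 in MEL1 S0 and 133 and 139 in MEL1 S3.

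GAS1, CDON and BOC are coreceptors that bring SHH to PTCH1, and all 3 rose from S0 to S6. GAS1 stood at 19.6 and 25.5 CPM at S0, 67.6 and 64.5 at S3, 280.5 and 258 at S4 and 146 and 149 at S6 in H1. GAS1 in MEL1 stood at 5.14 and 5.44 CPM at S0, 0.250 and 12.2 at S3, 38.2 and 52 at S4 and 92.6 and 116 at S6. GAS1 had the largest rise (3.69 ± 0.62 (SE), adjusted p = 0.000224). Its step from S3 to S4 (2.27 ± 0.57 (SE), adjusted p = 0.0587) was lost in 6 of the 8 fits that left out a library (log2 change 2.14 to 2.48), the exceptions being MEL1 S3 replicate 1 and MEL1 S4 replicate 1. CDON stood at 12.8 and 14.8 CPM at S0, 35.5 and 36.3 at S3, 70.6 and 64.3 at S4 and 54.9 and 45.9 at S6 in H1. CDON in MEL1 stood at 18.7 and 10.9 CPM at S0, 13.8 and 12.4 at S3, 14.7 and 14 at S4 and 31.4 and 27.8 at S6. CDON rose (1.34 ± 0.36 (SE), adjusted p = 0.007), and in MEL1 alone the change was 0.95, short of 2-fold. BOC stood at 0.483 and 0.682 CPM at S0, 9.07 and 6.80 at S3, 18.3 and 11.8 at S4 and 13.9 and 11.2 at S6 in H1. BOC in MEL1 stood at 0.206 and 1.09 CPM at S0, 0 and 0 at S3, 1.68 and 0.369 at S4 and 3.36 and 3.63 at S6. BOC rose (3.49 ± 0.91 (SE), adjusted p = 0.00598), and both MEL1 S3 libraries held 0 counts.

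GLI proteins carry the signal to the nucleus, with GLI1 and GLI2 acting mainly as activators and GLI3 mainly as a repressor. GLI1 stood at 19.8 and 16.6 CPM at S0, 7.88 and 7.83 at S3, 4.44 and 7.96 at S4 and 7.64 and 8.60 at S6 in H1. GLI1 in MEL1 stood at 11.3 and 17.4 CPM at S0, 0.50 and 2.48 at S3, 7.56 and 3.69 at S4 and 2.99 and 2.42 at S6. GLI1, the standard readout of the active pathway, fell at S3 (-2.02 ± 0.47 (SE), adjusted p = 0.00312) and was lower at S6 than at S0 (-1.73 ± 0.47 (SE), adjusted p = 0.00751), with no overlap in either comparison. GLI2 stood at 83.6 and 80.7 CPM at S0, 67 and 59.5 at S3, 134 and 124 at S4 and 81 and 80.0 at S6 in H1. GLI2 in MEL1 stood at 70.3 and 93.4 CPM at S0, 1.0 and 3.16 at S3, 32.4 and 28.4 at S4 and 28.8 and 27.8 at S6. GLI2 fell at S3 (-2.32 ± 0.65 (SE), adjusted p = 0.0105), and the fall rested on MEL1, since the change was -0.39 in H1 alone. The call was also lost with no cell line in the model (-1.32, adjusted p = 0.279). GLI3 stood at 15.7 and 12.3 CPM at S0, 50.5 and 54.2 at S3, 92.6 and 77.4 at S4 and 44.7 and 39.7 at S6 in H1. GLI3 in MEL1 stood at 16 and 17.4 CPM at S0, 2.0 and 5.87 at S3, 16.8 and 17 at S4 and 20.2 and 26.6 at S6. GLI3 was called in no comparison of stages, with values above S0 in H1 S3 and below S0 in MEL1 S3. SUFU, which holds GLI proteins in the cytoplasm, rose at S3 (1.20 ± 0.21 (SE), adjusted p = 0.00031) and S6 (1.36 ± 0.21 (SE), adjusted p = 9.46e-05), from 27.8 and 24.8 CPM in H1 S0 and 15 and 18.9 in MEL1 S0 to 56.6 and 58.9 and 51.2 and 54.5 at S6. DISP1, which releases ligand from cells, and KIF7, which regulates GLI in the cilium, were not called in any comparison, with largest changes of -0.67 and -0.53.

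The GLI consensus searched was TGGGTGGTC, present on either strand in 0.199% of all promoters (70 of 35116) and in 1 of the 72 promoters of the pathway genes. This is the window at chr9:95509267-95509516 on the minus strand, upstream of 1 of the 5 starts listed for PTCH1, shown because PTCH1 rose and GLI1 fell from S0 to S6.
PTCH1: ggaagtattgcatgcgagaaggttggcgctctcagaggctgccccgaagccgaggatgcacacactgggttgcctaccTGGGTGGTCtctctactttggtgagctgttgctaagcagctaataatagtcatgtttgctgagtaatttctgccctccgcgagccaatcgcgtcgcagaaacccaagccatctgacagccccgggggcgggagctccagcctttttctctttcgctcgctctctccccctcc
The capitals mark the word, whose left end lies 172 bases before that start on the gene's strand. Promoters of GLI1 and GLI3 were not matched.

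Of the FGF ligands, FGF2 and FGF19 fell after S0, and FGF18 was higher at S6 than at S0, as was the intracellular FGF11. FGF2 stood at 77.3 and 63.9 CPM at S0, 11.4 and 14 at S3, 11.6 and 10.6 at S4 and 4.97 and 5.73 at S6 in H1. FGF2 in MEL1 stood at 102 and 98.4 CPM at S0, 4.50 and 2.26 at S3, 10.5 and 1.84 at S4 and 1.12 and 4.44 at S6. FGF2, which sustains hESC self-renewal, fell at S3 (-3.63 ± 0.50 (SE), adjusted p = 4.53e-05) and had the largest fall of all 52 genes at S6 (-4.53 ± 0.53 (SE), adjusted p = 9.28e-06), with every later library below every S0 library. FGF19, an endocrine FGF of the gut, fell at S3 (-3.44 ± 0.82 (SE), adjusted p = 0.00377) from 3.38 and 6.37 CPM in H1 S0 and 7.40 and 6.53 in MEL1 S0 to 1.58 and 0.824 in H1 S3 and 0 in both MEL1 S3 libraries. Its S6 change was not called (-1.44 ± 0.72 (SE), adjusted p = 0.12). FGF18 stood at 2.90 and 3.64 CPM at S0, 3.55 and 2.68 at S3, 7.41 and 11.7 at S4 and 7.10 and 9.92 at S6 in H1. FGF18 in MEL1 stood at 3.91 and 3.26 CPM at S0, 2.75 and 1.81 at S3, 3.36 and 4.06 at S4 and 14.9 and 13.7 at S6. FGF18, a ligand known from bone and lung, rose over the whole course (1.72 ± 0.40 (SE), adjusted p = 0.0026). FGF11 stood at 18.6 and 16.4 CPM at S0, 5.72 and 5.36 at S3, 21.2 and 16.7 at S4 and 45.5 and 42.6 at S6 in H1. FGF11 in MEL1 stood at 11.3 and 13.5 CPM at S0, 2.25 and 2.93 at S3, 16.4 and 8.11 at S4 and 67.6 and 63.7 at S6. FGF11, an intracellular FGF that is not secreted, was the only pathway gene called in all 4 comparisons, with a fall at S3 (-1.88 ± 0.32 (SE), adjusted p = 0.000318) and rises at S4 (1.94 ± 0.32 (SE), adjusted p = 0.0076) and S6 (1.87 ± 0.30 (SE), adjusted p = 0.00217). Its S6 libraries lay above all others, and no call between stages was lost when 1 library was left out. FGF9, a secreted ligand, held at most 11 counts in any input library and was not called.

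The receptors FGFR3, FGFR4 and FGFRL1 rose at S3, and only FGFR3 and FGFRL1 were still called at S6. FGFR3 stood at 37.9 and 37.3 CPM at S0, 56 and 52.1 at S3, 47.4 and 42.2 at S4 and 60.9 and 56 at S6 in H1. FGFR3 in MEL1 stood at 9.46 and 22 CPM at S0, 109 and 141 at S3, 113 and 132 at S4 and 179 and 209 at S6. FGFR3, a receptor known for restraining bone growth, rose at S3 (1.43 ± 0.47 (SE), adjusted p = 0.0253) and at S6 (1.86 ± 0.48 (SE), adjusted p = 0.00598). At S3 the call was lost without either MEL1 S0 library (log2 change 0.97 to 1.11), and in H1 alone the change was 0.51 at S3 and 0.64 at S6. FGFR4 stood at 17.2 and 19.6 CPM at S0, 27.8 and 18.5 at S3, 25.9 and 15.5 at S4 and 7.10 and 4.85 at S6 in H1. FGFR4 in MEL1 stood at 5.14 and 10.7 CPM at S0, 55.3 and 105 at S3, 73.1 and 161 at S4 and 16.4 and 24.6 at S6. FGFR4, the receptor of FGF19 in liver, rose at S3 (1.43 ± 0.60 (SE), adjusted p = 0.071) and fell from S4 to S6 (-2.24 ± 0.60 (SE), adjusted p = 0.039). The rise was lost without H1 S3 replicate 1, MEL1 S3 replicate 2 or either MEL1 S0 library (log2 change 0.91 to 1.42), and the fall without MEL1 S4 replicate 2 or MEL1 S6 replicate 1 (-2.18 to -1.65). In MEL1 the level of FGFR4 was highest at S3 and S4, where the liver-type markers were highest too (29656 and 31382 at S3, 56142 and 59203 at S4), and their part in it was not tested. FGFRL1, a receptor without a kinase, rose at S3 (1.45 ± 0.34 (SE), adjusted p = 0.00321) and S6 (1.08 ± 0.34 (SE), adjusted p = 0.0196), and the S6 call was lost without H1 S0 replicate 2 or H1 S6 replicate 1 (0.83 to 0.93). FGFR2, the receptor of FGF7, was called in no comparison of stages, at 178 and 173 CPM in H1 S4 and 50.4 and 52 in MEL1 S4, and neither were FGFR1 and the adaptors FRS2 and FRS3. FGFR1 stood at 5.16 CPM or less over its peak region.

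The ETS factor ETV4 and the feedback inhibitor SPRY4 had the largest falls of the pathway genes at S3. SPRY4 stood at 191 and 195 CPM at S0, 12.2 and 12.8 at S3, 15.6 and 14.5 at S4 and 15.3 and 19.6 at S6 in H1. SPRY4 in MEL1 stood at 237 and 206 CPM at S0, 17.8 and 18.7 at S3, 44.1 and 40.9 at S4 and 20.5 and 41.1 at S6. SPRY4 fell at S3 (-3.80 ± 0.27 (SE), adjusted p = 5.91e-08) and was lower at S6 than at S0 (-3.18 ± 0.26 (SE), adjusted p = 2.8e-07), with no overlap in either comparison. SPRY4 inhibits FGF receptor signalling upstream of ERK. ETV4 stood at 38.4 and 32.5 CPM at S0, 2.76 and 2.47 at S3, 6.91 and 3.84 at S4 and 1.42 and 1.98 at S6 in H1. ETV4 in MEL1 stood at 45.4 and 57 CPM at S0, 1.50 and 0.451 at S3, 5.46 and 7.75 at S4 and 59.8 and 66.6 at S6. ETV4 fell at S3 (-4.41 ± 0.90 (SE), adjusted p = 0.00125), as did ETV5 (-2.33 ± 0.60 (SE), adjusted p = 0.00594) and SPRY1 (-1.55 ± 0.57 (SE), adjusted p = 0.0411). SPRY1 lost the call without either MEL1 S3 library (log2 change -1.33 to -1.17). At S6, ETV4 (-0.94 ± 0.79 (SE), adjusted p = 0.357), ETV5 (-1.06 ± 0.55 (SE), adjusted p = 0.135) and SPRY1 (-0.075 ± 0.55 (SE), adjusted p = 0.926) did not pass the test against S0. DUSP6 stood at 678 and 640.3 CPM at S0, 369.5 and 379 at S3, 315 and 253 at S4 and 68.5 and 63.3 at S6 in H1. DUSP6 in MEL1 stood at 646 and 551 CPM at S0, 116 and 128 at S3, 214 and 206 at S4 and 760.4 and 724 at S6. DUSP6, the phosphatase that inactivates ERK, was called in no comparison of stages, and its highest values after S0 were in MEL1 S6 and its lowest in H1 S6. SPRED2, an inhibitor of RAS signalling, rose at S3 (1.27 ± 0.21 (SE), adjusted p = 0.000249) and S6 (1.27 ± 0.21 (SE), adjusted p = 0.000222), while SPRED1 was lower at S6 (-1.06 ± 0.32 (SE), adjusted p = 0.0158), a call lost without H1 S6 replicate 2 or either MEL1 S0 library (-0.97 to -0.82). SPRY2 stood at 87.9 and 88.2 CPM at S0, 90.5 and 88.8 at S3, 122 and 121 at S4 and 78.1 and 74.5 at S6 in H1. SPRY2 in MEL1 stood at 74.4 and 77.7 CPM at S0, 95.8 and 89.4 at S3, 149.6 and 148 at S4 and 337 and 375 at S6. SPRY2 was higher at S6 (1.19 ± 0.37 (SE), adjusted p = 0.0176), but not in H1, where the change was -0.20, and without either MEL1 S6 library it was 0.87 to 0.98.

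ETS factors bind DNA around the letters CCGGAA. These were on either strand in 14.5% of all promoters and in 8 of the 72 of the pathway genes, those of 7 genes (DISP1, FRS2, MIB2, NUMBL, RFNG, SPRY1 and SPRY2). The window of SPRY2 at chr13:80341127-80341376 on the minus strand, 1 of 3 listed starts, is shown because SPRY2 parted between the lines at S6.
SPRY2: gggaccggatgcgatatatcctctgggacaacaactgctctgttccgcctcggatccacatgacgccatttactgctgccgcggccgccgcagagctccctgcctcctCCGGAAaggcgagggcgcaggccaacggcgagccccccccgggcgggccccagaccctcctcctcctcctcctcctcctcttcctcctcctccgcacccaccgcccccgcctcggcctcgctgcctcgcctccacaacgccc
The capitals mark the word, 142 bases before the start. Promoters of ETV4 and ETV5 were not matched.

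**Figure D2:**
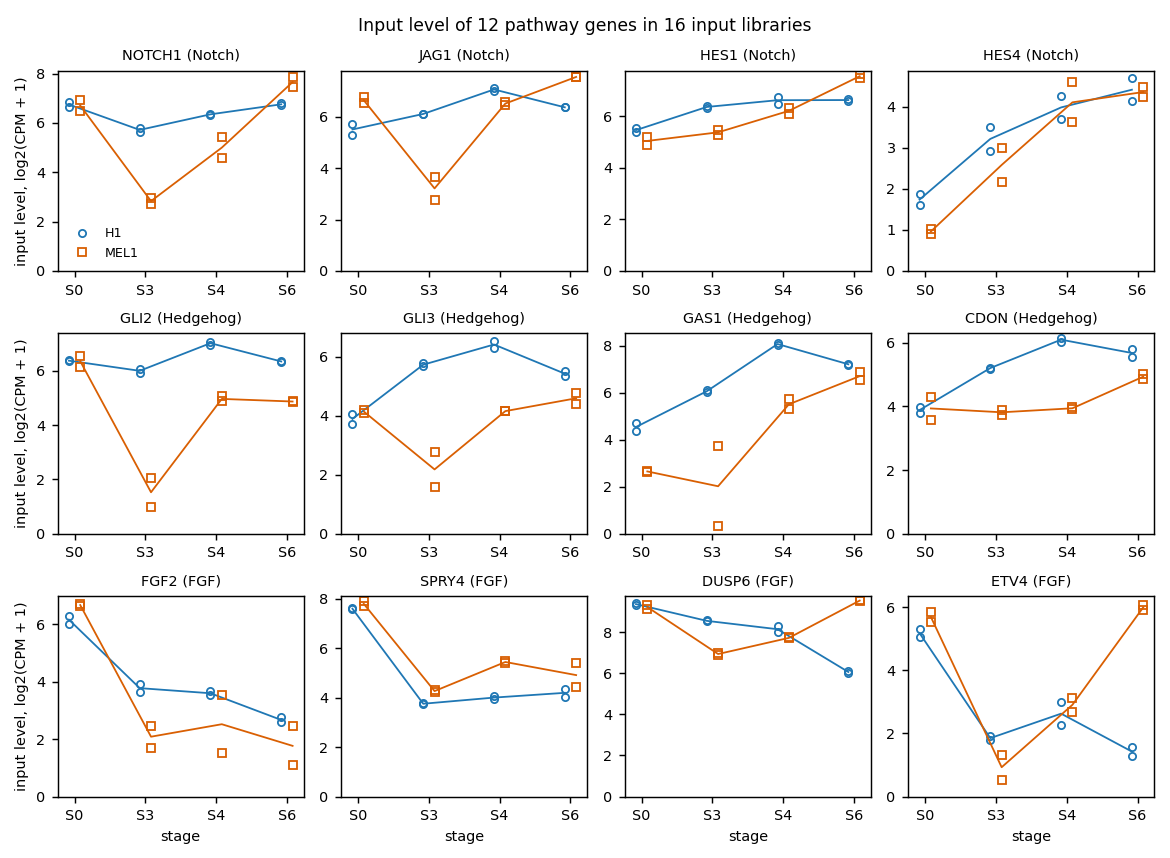
Input level, log2(CPM + 1), of 12 pathway genes by stage in H1 (circles) and MEL1 (squares), 2 libraries each, with lines through the means. FGF2 and SPRY4 fall after S0 in both lines and HES4 rises in both. NOTCH1, JAG1, GLI2 and GLI3 dip to their lowest at MEL1 S3, and DUSP6 and ETV4 part at S6.

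H1 and MEL1 were compared by testing whether a gene changed by a different amount in each line (edgeR, interaction of line and stage). From S0 to S3 the change differed in 24 of the 52 genes (46.2%), where 34.0% of all 7973 genes differed, and the change was lower in MEL1 in 19 and higher in 5. Over all genes it was lower in 1398 and higher in 1315. Between S3 and S4 it differed in 10 (19.2%, against 9.65% of all genes), higher in MEL1 in 8 (485 of the 769 called over all genes), and from S4 to S6 in 21 (40.4%, against 15.3%), higher in MEL1 in 20 (614 of the 1216). With 1 line of each genetic background, a difference is between these cultures. DISP1, FGF9, FGFR1, HES6, KIF7, MAML1, NOTCH2, SMO and SPRED3 were called neither for stage nor for line. Within H1, several calls made over both lines did not reach 2-fold. At S3 these were RBPJ (-0.51), NUMBL (-0.94), RFNG (0.50), SUFU (0.78), SPRY1 (-0.87), ETV5 (-0.99), FGFR4 (0.32) and GLI2 and FGFR3 as given above, while MIB2 reached 1.23 (adjusted p = 0.111). At S6 against S0 they were DLL1 (0.92), NOTCH3 (0.74), FGFR3 (0.64), SPRED1 (-0.52), SPRED2 (0.71) and SPRY2 (-0.20, the sign opposite to that over both lines), and within MEL1 FGFRL1 (0.58) and CDON (0.95). With no cell line in the model, calls were lost for DLL1 at S6 against S0 (1.19, adjusted p = 0.163), FGFR4 from S4 to S6 (-2.40, adjusted p = 0.149), and FGFRL1 at S3 (1.41, adjusted p = 0.1) and at S6 (0.86, adjusted p = 0.313) against S0. FGFR4 lost its S3 call with the strongest peak alone (1.34, adjusted p = 0.114).

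At S3 the Hedgehog factors GLI2 and GLI3 and the Notch genes JAG1 and NOTCH1 were lower in MEL1 than in H1. GLI2 stood at 67 and 59.5 CPM in H1 S3 and 1.0 and 3.16 in MEL1 S3, after like values at S0, and the log2 changes (-0.38 in H1 and -5.25 in MEL1) differed by -4.87 ± 0.35 (SE), adjusted p = 1.75e-09. GLI3 stood at 50.5 and 54.2 in H1 S3 and 2.0 and 5.87 in MEL1 S3 (1.90 in H1 and -2.05 in MEL1, difference -3.96 ± 0.42 (SE), adjusted p = 3.14e-07). JAG1 stood at 68.6 and 67.8 in H1 S3 and 5.76 and 11.7 in MEL1 S3 (0.60 in H1 and -3.49 in MEL1, difference -4.09 ± 0.30 (SE), adjusted p = 2.13e-09). For GLI3 and JAG1 the signs were opposite in the lines, and for GLI2 they were the same. NOTCH1 was lower at S3 than at S0 in both lines and by more in MEL1 (difference -3.04 ± 0.35 (SE), adjusted p = 9.28e-07). HEYL, a HES-related repressor, differed by -4.25 ± 0.80 (SE), adjusted p = 0.000293. PTCH1, RBPJ, CDON and HEY1 differed in the same direction, and so did BOC, with 0 counts in both MEL1 S3 libraries (adjusted p = 0.000891). HEY1 lost the call without H1 S0 replicate 2, H1 S3 replicate 2 or MEL1 S3 replicate 1 (log2 difference -2.55 to -2.25). The change was higher in MEL1 for FGFR3 (2.47 ± 0.34 (SE), adjusted p = 9e-06) and FGFR4 (3.01 ± 0.57 (SE), adjusted p = 0.000313), whose S3 levels in MEL1 lay above every H1 library. These genes moved with the liver-type markers (459.9 and 466 CPM in H1 S3 against 29656 and 31382 in MEL1 S3), the neural markers (2549.9 and 2609.7 against 36.5 and 43.4), the markers of undifferentiated cells (1323 and 1365 against 149 and 180.3) and the dividing-cell markers MKI67, TOP2A and CCNB1 (884 and 947 against 264 and 294), and the part of these cells in the differences was not tested.

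In the next step, to S4, the changes of GLI2, JAG1 and NOTCH1 were higher in MEL1 than in H1. The changes were 1.03 in H1 and 3.81 in MEL1 for GLI2 (difference 2.79 ± 0.38 (SE), adjusted p = 4.1e-05), 0.97 in H1 and 3.35 in MEL1 for JAG1 (difference 2.39 ± 0.30 (SE), adjusted p = 1.4e-05) and 0.64 in H1 and 2.40 in MEL1 for NOTCH1 (difference 1.76 ± 0.37 (SE), adjusted p = 0.00309). GLI2 still stood at 32.4 and 28.4 CPM in MEL1 S4 against 134 and 124 in H1 S4. For SHH the change was -0.42 in H1 and 3.83 in MEL1 (difference 4.25 ± 1.04 (SE), adjusted p = 0.0124), from at most 5 counts in MEL1 S3. FGFR2 and FRS2 went the other way, with differences of -1.60 ± 0.24 (SE), adjusted p = 0.000114 and -1.43 ± 0.30 (SE), adjusted p = 0.00315. GLI1 (2.15 ± 0.75 (SE), adjusted p = 0.0765) and GLI3 (1.37 ± 0.42 (SE), adjusted p = 0.0433) were called too. GLI1 lost the call without either H1 S3 library, H1 S4 replicate 1, MEL1 S3 replicate 1 or MEL1 S4 replicate 1 (1.45 to 2.17), and GLI3 without H1 S3 replicate 2, H1 S4 replicate 2, MEL1 S3 replicate 1 or MEL1 S4 replicate 2 (0.82 to 1.38). Between S3 and S4 the sum of the 5 measured of 7 mesenchyme markers (COL1A1, COL1A2, PDGFRA, PDGFRB and TWIST1) went from 142 and 148 to 651 and 709.8 CPM in MEL1 and from 115 and 121 to 82 and 132 in H1. These markers did not move together in MEL1. COL1A1 rose from 82.6 and 81.8 to 565 and 528, and COL1A2 rose too. PDGFRA fell from 37.9 and 27.2 to 3.02 and 3.32, and PDGFRB went from 9.18 and 7.74 to 9.42 and 8.31. The neural sum went from 36.5 and 43.4 to 549 and 656 in MEL1 and from 2549.9 and 2609.7 to 2581 and 2847 in H1, the endocrine sum from 7.97 and 9.38 to 61.8 and 64.8 and from 25.8 and 33.2 to 688 and 737, and the liver-type sum from 29656 and 31382 to 56142 and 59203 and from 459.9 and 466 to 201 and 232. The sum of undifferentiated markers (SOX2, LIN28A and L1TD1) went from 149 and 180.3 to 294 and 301 in MEL1 and from 1323 and 1365 to 1840.0 and 1867 in H1. With TMM scaling its highest value was 1321 at S3 and 1608 at S4. In H1 only SOX2 rose, from 856 and 864 to 1443 and 1476. LIN28A went from 396 and 422 to 385 and 331 there, and L1TD1 from 69.8 and 79.4 to 38.4 and 32.7. The posterior foregut sum went from 2865 and 3038 to 1398 and 1412 in MEL1 and from 1040.3 and 1084 to 660.1 and 841 in H1. The part of all these markers in the differences was not tested.

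At S6 the ERK feedback genes parted. DUSP6 stood at 68.5 and 63.3 CPM in H1 S6 and 760.4 and 724 in MEL1 S6, and from S4 its log2 change was -2.10 in H1 and 1.82 in MEL1 (difference 3.92 ± 0.20 (SE), adjusted p = 1.95e-11). ETV4 stood at 1.42 and 1.98 in H1 S6 and 59.8 and 66.6 in MEL1 S6 (-1.60 in H1 and 3.24 in MEL1, difference 4.84 ± 0.54 (SE), adjusted p = 1.85e-06). SPRY1 stood at 19.2 and 11.5 in H1 S6 and 84.4 and 79.9 in MEL1 S6 (difference 3.20 ± 0.38 (SE), adjusted p = 4.83e-06), and SPRY2 at 78.1 and 74.5 in H1 S6 and 337 and 375 in MEL1 S6 (difference 1.93 ± 0.18 (SE), adjusted p = 2.19e-07). All 4 were lower at S6 than at S4 in H1 and higher in MEL1, and none of these calls was lost when 1 library was left out. SPRY4 stood at 15.3 and 19.6 in H1 S6 and 20.5 and 41.1 in MEL1 S6, and its line difference was not called (-0.68 ± 0.34 (SE), adjusted p = 0.184). ETV5, the other ETS factor, differed (2.19 ± 0.75 (SE), adjusted p = 0.05), and lost the call without H1 S4 replicate 1, H1 S6 replicate 2, MEL1 S4 replicate 1 or MEL1 S6 replicate 1 (1.48 to 1.97). The Notch genes NOTCH1 (2.22 ± 0.31 (SE), adjusted p = 3.24e-05), JAG1 (1.75 ± 0.26 (SE), adjusted p = 7.6e-05) and HES1 (1.34 ± 0.23 (SE), adjusted p = 0.000293) also had the higher change in MEL1, where HES1 reached 197 and 176 CPM against 101 and 94.4 in H1. Between S4 and S6 the liver-type sum went from 56142 and 59203 to 2608 and 2672 CPM in MEL1 and from 201 and 232 to 106 and 118 in H1. The mesenchyme sum went from 651 and 709.8 to 226 and 234 in MEL1 and from 82 and 132 to 296 and 305 in H1, the sum of dividing-cell markers from 172 and 234 to 437 and 481 and from 802 and 838 to 832 and 870.0, the pancreatic progenitor sum from 69.8 and 70.1 to 161 and 162 and from 122.96 and 147 to 50.9 and 55.5, and the endocrine sum from 61.8 and 64.8 to 671 and 680.1 and from 688 and 737 to 1013 and 1053. The sum of undifferentiated markers went from 294 and 301 to 318 and 335 in MEL1 and from 1840.0 and 1867 to 868 and 923 in H1, and the posterior foregut sum from 1398 and 1412 to 686 and 718 in MEL1 and from 660.1 and 841 to 574 and 593 in H1. With TMM scaling, the endocrine sum at S6 ran from 746 to 832 CPM over both lines, a smaller gap than the sums above. The part of these markers in the differences was not tested.

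**Figure D3:**
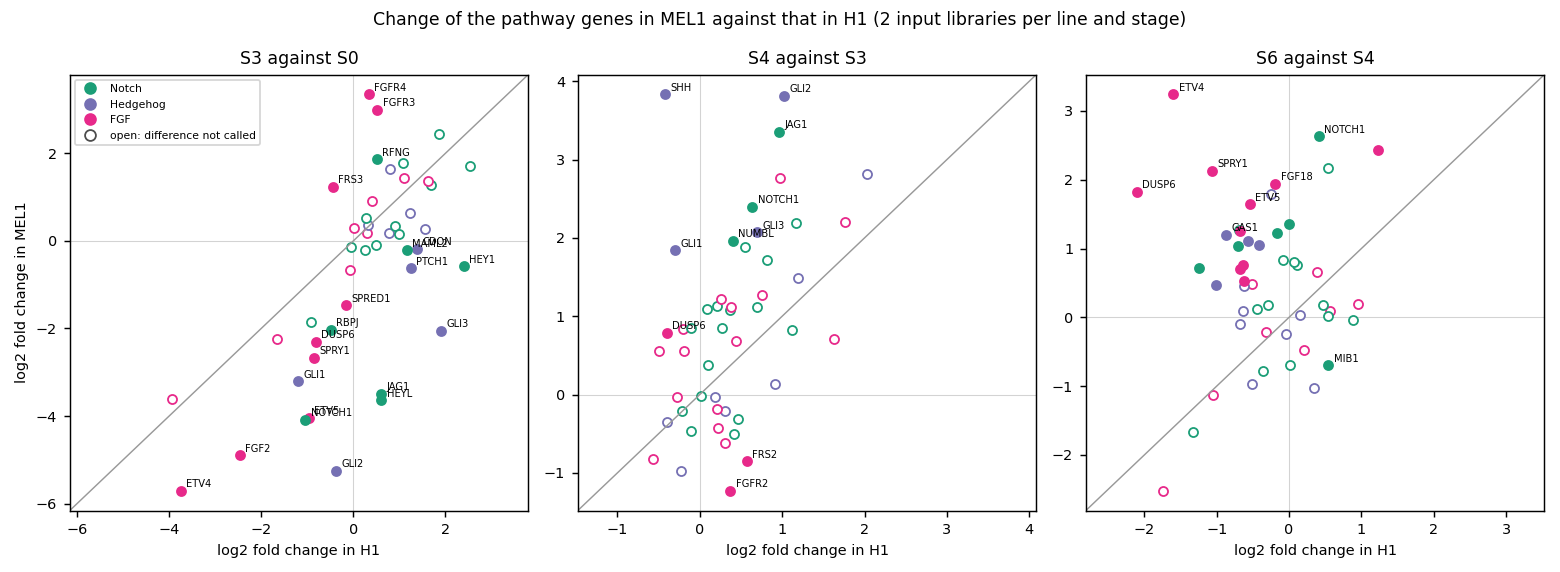
Log2 fold change of the pathway genes in MEL1 against that in H1 for 3 steps, with the diagonal of equal change and filled points where the difference passed the test. At S3 against S0 most called genes lie below the diagonal (19 of the 24 called, drawn or not), and at S6 against S4, 20 of 21 lie above it. Genes with a line and stage at or under 3 counts in both libraries are not drawn, which leaves 45, 48 and 49 genes, and in the third panel only differences above 2 and MIB1 are named.

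The other genes of the pathways, from lists chosen for their known roles, are given by their counts. Of 19 measured Notch processing enzymes and cofactors, 1 rose and 2 fell at S3, and 2 rose and 2 fell at S6 against S0. Of all genes, 15.0% rose and 13.8% fell at S3 and 17.5% rose and 13.8% fell at S6, and the counts of each list are to be read against these shares. DTX4, a ubiquitin ligase of the Notch pathway, rose by 2.39 ± 0.22 (SE), adjusted p = 8.92e-07 at S3, and DTX1, of the same family, changed by -2.64 ± 0.85 (SE), adjusted p = 0.0227. CTBP2, a corepressor, changed by -1.14 ± 0.35 (SE), adjusted p = 0.0161 at S3. Of 15 measured Hedgehog genes, 6 rose at S3, and 6 rose and 1 fell at S6. LRP2, an endocytic receptor for SHH, rose by 4.19 ± 0.54 (SE), adjusted p = 2.35e-05 and GPC3, a glypican that binds Hedgehog ligands, by 3.04 ± 0.79 (SE), adjusted p = 0.00691 at S3. Of 26 measured FGF and ERK genes, 5 rose and 3 fell at S3 and 5 rose and 4 fell at S6, beside 1 risen from S3 to S4 and 2 risen and 2 fallen from S4 to S6 (1.49% of all genes rose in the first of these steps, and 2.85% rose and 2.33% fell in the second). FLRT3, a membrane partner of FGFRs, rose by 5.69 ± 0.45 (SE), adjusted p = 1.8e-07 at S3, as did SULF2, a sulfatase that trims heparan sulfate (2.60 ± 0.29 (SE), adjusted p = 6.71e-06). SHC1, an adaptor between receptor kinases and RAS, changed by -1.60 ± 0.18 (SE), adjusted p = 6.76e-06 at S3, and EGR1, an immediate target of ERK, changed by -1.89 ± 0.28 (SE), adjusted p = 9.11e-05 at S3, by 1.77 ± 0.28 (SE), adjusted p = 0.0049 from S3 to S4 and by -1.84 ± 0.28 (SE), adjusted p = 0.00152 from S4 to S6. DUSP4 and DUSP5, phosphatases of ERK, rose at S3 (1.16 ± 0.33 (SE), adjusted p = 0.0107, and 1.18 ± 0.44 (SE), adjusted p = 0.0465) and were the 2 genes of this list that rose from S4 to S6 (1.47 ± 0.33 (SE), adjusted p = 0.0168, and 1.39 ± 0.46 (SE), adjusted p = 0.0884).

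m6A was read as IP over input at each merged peak, log2 of IP CPM + 1 over input CPM + 1 in each RNA preparation. Peaks are named by the gene and the position the table gives within it. As peaks were called on these libraries, a positive value is no test of methylation. The 199 peaks of the pathway genes were of unequal strength. In 41 the IP exceeded input in all 16 preparations, in 17 by more than 2-fold in all 16, and in 23 IP exceeded input in none. The median over preparations exceeded 1 in 69 peaks on 34 genes, which is 27 of the 61 Hedgehog peaks, 23 of the 79 Notch peaks and 19 of the 59 FGF peaks. Hedgehog peaks had a median of 0.91, Notch peaks of -0.13 and FGF peaks of -0.028. The median of all 26104 peaks was between -0.045 and 0.34 in each preparation.

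Several signalling regulators held a dominant peak, with IP above input in every preparation for all those named here but PTCH1. SPRY1 held the peak at position 1851 (2.38 to 3.98, median 2.85), SUFU that at 3451 (2.0 to 3.29, median 2.87) and SPRED1 that at 1901 (1.73 to 3.28, median 2.80). In SPRY1 the peak held 98.5% of the gene's IP reads. HEYL at 1212 (0.20 to 3.24, median 2.43), JAG2 at 1148 (0.42 to 3.82, median 3.37), FGF2 at 701 (0.94 to 3.45, median 2.13) and FRS2 at 1501 (0.074 to 2.86, median 2.63) had lower values in their weakest preparation. SPRY2 at 939 (1.02 to 2.02, median 1.67), RBPJ at 4951 (0.96 to 2.97, median 1.96), JAG1 at 1699 (1.22 to 3.36, median 2.07), SMO at 2951 (1.06 to 2.70, median 1.98), PTCH1 at 4292 (-0.023 to 3.29, median 2.13), GLI1 at 2701 (1.73 to 3.58, median 2.55) and DUSP6 at 1633 (0.32 to 2.29, median 1.75) had medians above 1.

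Other genes showed no excess of IP at the median. In NOTCH3 the strongest IP peak, at 2045, gave -3.82 to 0.12, median -1.35, and all 6 of its peaks had medians below 0. The peaks with most IP reads of FGFR3 (-2.05 to 1.13, median -0.96), FGFR4 (-4.30 to 1.47, median -2.11), ETV4 (-3.19 to 0.43, median -1.40), FGFRL1 (-2.93 to 0.42, median -1.37) and MIB1 (-4.0 to -0.10, median -1.65) were also below 0 at the median. Of the NOTCH receptors, NOTCH1 at 2278 (-0.22 to 3.85, median 1.86) and NOTCH2 at 3158 (0.71 to 3.05, median 2.39) had medians above 1. In all, the strongest IP peak had a median above 1 in 34 of the 52 genes and at or below 0 in 14.

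**Figure D4:**
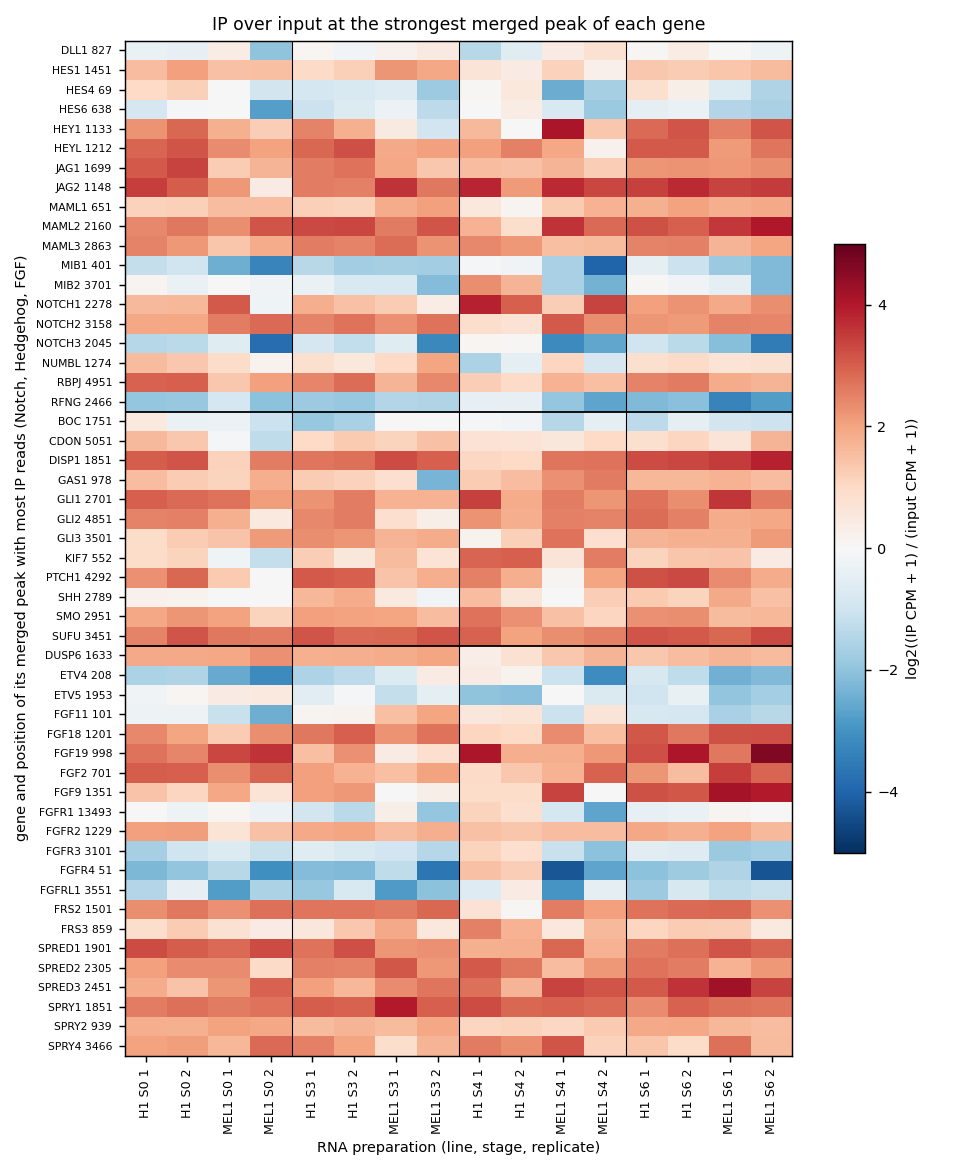
Log2 IP over input at the merged peak with most IP reads of each of the 52 genes, in 16 RNA preparations ordered by stage, with lines between stages and between the Notch, Hedgehog and FGF genes. Red means IP above input and blue below. Most rows keep their colour across stages and lines, and the H1 S4 columns are paler than the other H1 columns for FRS2, DISP1 and RBPJ and turn from red to blue for NUMBL.

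A change of m6A at a peak was tested as a change of the IP signal beyond that of the input (edgeR, an interaction term, 32 libraries, the same thresholds). From S0 to S3, 0 of the 199 peaks were called, where 0.0306% of all 26104 peaks were called higher and 0.0192% lower. At an unadjusted p under 0.05, 6 of the 199 differed, and DESeq2 called 0, beside 167 of all peaks. From S0 to S6, 0 were called, where 0.0575% of all peaks were called higher and 0.192% lower, with 15 at an unadjusted p under 0.05. For the same comparison DESeq2 called 5 lower and 0 higher, beside 1352 lower and 221 higher of all 26104 peaks. From S3 to S4, 4 peaks were lower (2.01%, against 1.92% of all peaks) and 0 higher (against 0.850%), and from S4 to S6, 6 were higher (3.02%, against 3.39%) and 4 lower (2.01%, against 3.06%), shares near those of all peaks. Over all peaks the balance of calls differed between DESeq2, which changes both the test and the scaling, a joint scaling and the test used here. Between S3 and S4 it was 222 higher and 502 lower here, 1072 and 948 with DESeq2, and 196 and 1528 with 1 scaling over input and IP libraries together. From S4 to S6 it was 885 and 799 here, 1303 and 2146 with DESeq2, and 1387 and 591 with the joint scaling.

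All 14 calls involved S4, on 11 peaks. In log2 IP over input, MAML1 at 2501 stood at 1.48 and 1.53 in H1 S3, -0.017 and 0.021 at S4 and 1.23 and 1.18 at S6, and at 1.76 and 1.88 in MEL1 S3, 0.52 and 0.83 at S4 and 0.82 and 1.38 at S6. This peak of the Notch coactivator was lower at S4 than at S3 (log2 change -1.35 ± 0.31 (SE), adjusted p = 0.03) in both lines, with no overlap, a call that was lost only without MEL1 S3 replicate 2 (-1.25). RFNG at 116 stood at -2.17 and -1.58 in H1 S3, -4.23 and -3.05 at S4 and -1.91 and -1.75 at S6, and at -1.49 and -2.0 in MEL1 S3, -4.92 and -4.01 at S4 and -2.36 and -1.83 at S6. RFNG was lower at S4 (-3.35 ± 0.67 (SE), adjusted p = 0.0107) and higher again at S6 (3.07 ± 0.67 (SE), adjusted p = 0.0137), with the same direction in both lines and both calls kept when any 1 library was left out. RFNG at 116 had IP below input in all of these preparations. Its IP reads at S4 numbered 1 and 12 in H1 and 0 and 2 in MEL1, so the size of its change, above all in MEL1, is uncertain. MAML1 at 1651 (-1.24 ± 0.37 (SE), adjusted p = 0.0866) and FGF11 at 3701 (-3.40 ± 1.01 (SE), adjusted p = 0.0886) were also lower at S4 and higher at S6 (1.27 ± 0.37 (SE), adjusted p = 0.0555, and 3.31 ± 0.97 (SE), adjusted p = 0.0581). In MEL1 alone these were not called, at -0.48 (adjusted p = 0.562) and 0.49 (adjusted p = 0.557) for MAML1, and with an adjusted p of 0.121 and 0.127 for FGF11. FGF11 at 3701 held 2 and 6 IP reads in H1 S4 and 0 in both MEL1 S4 libraries, so the size of its change is uncertain. The S4 call was lost without any 1 of the H1 S3 and H1 S4 preparations or MEL1 S3 replicate 2 (log2 change -1.19 to -0.99 for MAML1, -4.10 to -2.84 for FGF11), and for FGF11 also without MEL1 S3 replicate 1. The S6 call was lost for MAML1 without any 1 of the H1 S4 and H1 S6 preparations or MEL1 S6 replicate 1 (1.01 to 1.27), and for FGF11 without H1 S4 replicate 1 or any 1 of the H1 S6 and MEL1 S6 preparations (3.10 to 3.40). With the RNA preparation as a block, which pairs the input and IP of 1 preparation, the S4 call of FGF11 was lost (-3.49, adjusted p = 0.108).

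Most of the other calls from S4 to S6 were larger in H1 than in MEL1. FRS2 at 1501 stood at 2.67 and 2.66 in H1 S3, 0.72 and 0.074 at S4 and 2.73 and 2.83 at S6, and at 2.61 and 2.86 in MEL1 S3, 2.54 and 2.04 at S4 and 2.86 and 2.29 at S6. DISP1 at 1851 stood at 2.68 and 2.75 in H1 S3, 1.02 and 1.01 at S4 and 3.26 and 3.35 at S6, and at 3.27 and 2.99 in MEL1 S3, 2.67 and 2.73 at S4 and 3.49 and 3.86 at S6. In both, the low values were the 2 H1 S4 preparations. FRS2 (1.37 ± 0.46 (SE), adjusted p = 0.0958), DISP1 (1.63 ± 0.54 (SE), adjusted p = 0.0879) and FGF18 at 1201 (1.74 ± 0.53 (SE), adjusted p = 0.0637) were higher at S6, and in MEL1 alone the changes were 0.26, 1.17 and 1.08, none of them called. NOTCH3 at 3545 stood at -4.43 and -4.26 in H1 S3, -1.69 and -2.03 at S4 and -4.18 and -4.36 at S6, and at -4.46 and -5.22 in MEL1 S3, -4.63 and -5.70 at S4 and -4.89 and -5.28 at S6. NOTCH3 at 3545 was called lower at S6 (-2.16 ± 0.69 (SE), adjusted p = 0.0775), as were MAML3 at 713 (-3.62 ± 1.05 (SE), adjusted p = 0.0562) and at 2513 (-2.14 ± 0.67 (SE), adjusted p = 0.0727). In MEL1 alone none of the 3 was called, with changes of 0.20 for NOTCH3, -0.76 for MAML3 at 2513 and -4.07 for MAML3 at 713. MAML3 at 713 held 0 and 2 IP reads in MEL1 S6, so the size of its change is uncertain. SPRY2 at 2839, a peak of 292 IP reads in all beside the 65958 of its peak at 939, was lower too (-3.72 ± 1.08 (SE), adjusted p = 0.0566). With the RNA preparation as a block, the calls of NOTCH3 (-1.68, adjusted p = 0.255) and MAML3 at 2513 (-1.86, adjusted p = 0.149) were lost, and that of NOTCH3 also with the joint scaling (-2.03, adjusted p = 0.107). Left out 1 at a time, the H1 S4, H1 S6 and MEL1 S6 preparations each ended these calls, other than MEL1 S6 replicate 2 for FRS2, H1 S6 replicate 2 for MAML3 at 713, and both H1 S4 preparations for SPRY2, whose call ended without MEL1 S4 replicate 2. The values were 0.86 to 1.45 for FRS2, 1.22 to 1.85 for DISP1, 1.43 to 1.83 for FGF18, -2.17 to -1.42 for NOTCH3, -3.55 to -3.17 and -2.12 to -1.56 for MAML3 and -4.04 to -3.12 for SPRY2. In the H1 S4 preparations the mitochondrial share of the IP libraries was also the lowest (0.0465% and 0.0510%), and its part in these calls was not tested. Fitted in H1 alone, 101 of the 199 peaks were called from S3 to S4 and 93 from S4 to S6, beside 12059 and 11043 of all peaks.

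**Figure D5:**
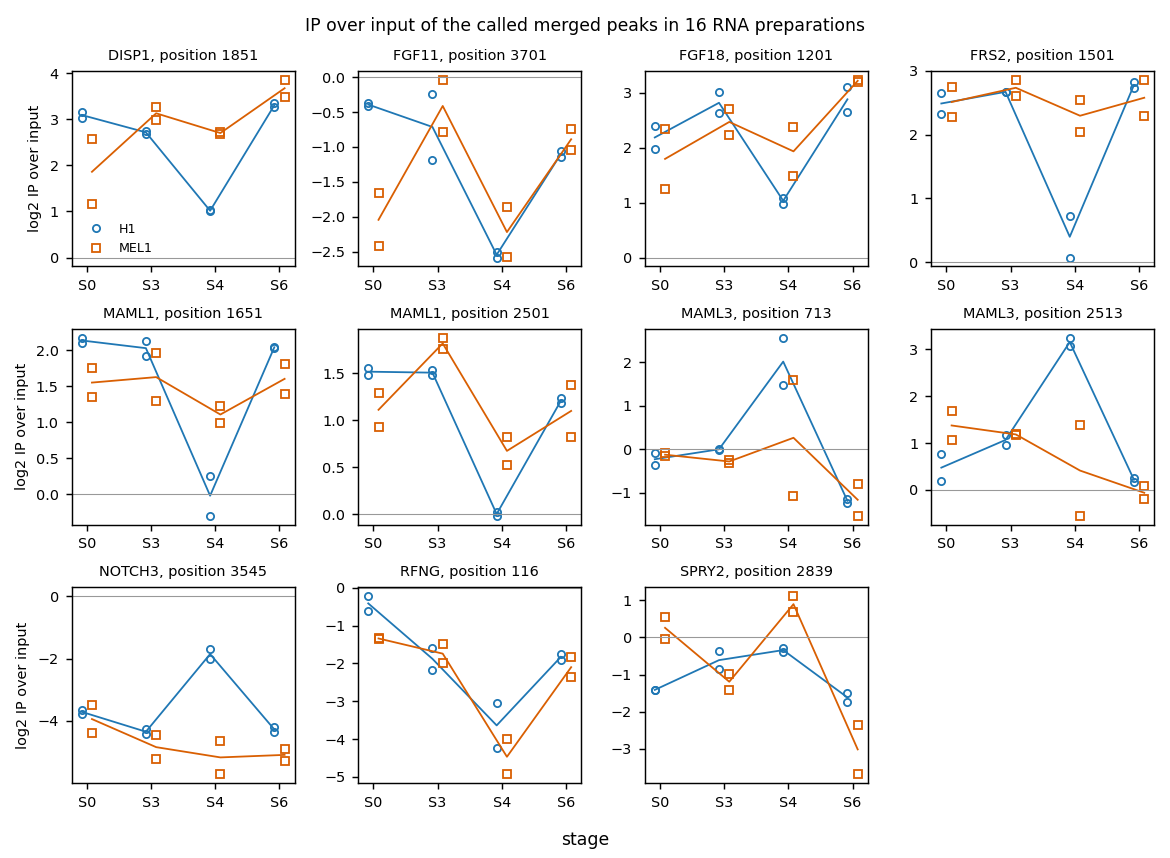
Log2 IP over input of the 11 called peaks by stage in H1 (circles) and MEL1 (squares), 2 preparations each, with lines through the means. RFNG 116, FGF11 3701 and MAML1 2501 dip at S4 in both lines, whereas DISP1, FRS2, MAML3 2513 and NOTCH3 3545 depart at S4 mainly in H1.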

How the data were processed

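Raw counts of reads per merged m6A peak were deposited by the authors for 16 input and 16 IP libraries (H1 and MEL1, 4 stages, 2 replicates). Per the methods of the study, mRNA was sonicated, precipitated with an m6A antibody and sequenced in strand-specific libraries, and the authors counted reads in bins of genes and called and merged peaks over samples with MeRIPtools. Genes followed an Ensembl annotation, and the aligner and the genome build are not given in the sources used here. Regions under no peak are absent from these sums, so a change in splicing or in peak width also moves a level.

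Input counts were summed per gene and tested with edgeR 4.0.16 (quasi-likelihood, TMM, R 4.3.3, Benjamini-Hochberg adjustment) as line + stage. m6A was tested per peak by a term for stage times library type, with TMM within input and within IP, and line differences as the interaction of line and stage. Genes and peaks with a total under 10 were dropped. Values per library are given for up to 6 called genes with the largest rise and 6 with the largest fall per comparison, for genes called for a line difference and for a roster of pathway genes chosen by role, as far as they help the account. Peaks named are those called and the peak with most IP reads of roster genes, and other genes of the pathways are named from among the 2 largest called rises and falls per list and comparison. The genes and lists were chosen with earlier results of these data known. The expression test recovered known changes on simulated counts. For m6A and line differences the simulation was required to return only the size of the change. It held no line effects beside the known changes, so it was simpler than these data. Enrichment is log2((IP CPM + 1)/(input CPM + 1)). Alternatives were DESeq2 1.42.0, other filters and scalings, no cell line, a replicate block, each line alone, the strongest peak alone, and each library left out. Input and IP libraries of 1 preparation share their RNA by label, and their deviations correlated at -0.22 to 0.080. Replicates differed by more than sampling noise. P-values measure the spread between these samples, with 2 per line and stage. Comparisons that share a stage share its libraries. The table was matched to RefSeq promoters of GRCh38.p14 by symbol. Figures were drawn with matplotlib 3.10.9. Read counts of NOTCH2 may be split with its near-identical copies.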

Additional observations from a re-analysis of the deposited data

Results flagged for a closer look

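Results were set apart for a closer look where the change between stages differed between the lines by a test of the difference itself (edgeR, interaction of line and stage, adjusted p under 0.1 and at least 2-fold). Values are the log2 change in MEL1 minus that in H1. Where a line and stage held at most 3 counts in both libraries, the adjusted p stands in place of the value.

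From S0 to S3, the change was lower in MEL1 for the Notch genes HEYL (-4.25), JAG1 (-4.09), NOTCH1 (-3.04), HEY1 (-2.98), RBPJ (-1.54) and MAML2 (-1.38). It was lower for the Hedgehog genes GLI2 (-4.87), GLI3 (-3.96), GLI1 (-2.0), PTCH1 (-1.87) and CDON (-1.56), and for BOC (adjusted p = 0.000891). Among FGF genes it was lower for ETV5 (-3.08), FGF2 (-2.43), ETV4 (-1.96), SPRY1 (-1.81), DUSP6 (-1.48) and SPRED1 (-1.32), and for FGF19 (adjusted p = 0.0287). The change was higher in MEL1 for FGFR4 (3.01), FGFR3 (2.47), FRS3 (1.68) and RFNG (1.35), and for MIB2 (adjusted p = 0.0912). Leaving out 1 library ended the call of MAML2 (-1.42 to -1.19 without either H1 S0 library, H1 S3 replicate 2 or MEL1 S3 replicate 1), ETV4 (-1.32 without MEL1 S3 replicate 2), GLI1 (-1.31 without MEL1 S3 replicate 1), FRS3 (1.14 to 1.41 without H1 S3 replicate 1 or MEL1 S0 replicate 1) and MIB2 (adjusted p = 0.183 to 0.329 without H1 S0 replicate 2, H1 S3 replicate 2, MEL1 S0 replicate 1 or MEL1 S3 replicate 2).

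From S3 to S4, the change was higher in MEL1 for SHH (4.25), GLI2 (2.79), JAG1 (2.39), GLI1 (2.15), NOTCH1 (1.76), NUMBL (1.56), GLI3 (1.37) and DUSP6 (1.19), and lower for FGFR2 (-1.60) and FRS2 (-1.43).

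From S4 to S6, it was higher in MEL1 for the Notch genes NOTCH1 (2.22), HEYL (1.96), DLL1 (1.96), JAG1 (1.75), RBPJ (1.39) and HES1 (1.34), the Hedgehog genes GAS1 (2.07), PTCH1 (1.68), GLI3 (1.47) and CDON (1.46), and the FGF genes ETV4 (4.84), DUSP6 (3.92), SPRY1 (3.20), ETV5 (2.19), FGF18 (2.12), SPRY2 (1.93), FGFR2 (1.40), SPRED1 (1.38), FGF11 (1.21) and SPRED2 (1.14). It was lower for MIB1 (-1.24). Leaving out 1 library ended the call of HEYL (1.20 to 2.10 without H1 S4 replicate 2, MEL1 S4 replicate 1 or any S6 library), MIB1 (-1.35 to -1.09 without H1 S4 replicate 2, either H1 S6 library, MEL1 S4 replicate 2 or MEL1 S6 replicate 1), FGF11 (0.75 to 1.17 without H1 S6 replicate 2 or MEL1 S4 replicate 2), PTCH1 (1.28 without MEL1 S6 replicate 2) and SPRED2 (0.97 without MEL1 S4 replicate 1). The marker sums of each line given with the libraries belong beside these values, and their part was not tested.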

How the results depend on the processing

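Of the 24 and 24 pathway genes called at S3 and S6 against S0 and the 24, 10 and 21 line differences, the counts stayed within 1.5 times under every alternative that gave a value. The 2 later steps were less firm. Between S3 and S4 (5 genes here), DESeq2 called 8 (297 of all genes), a model with no cell line 1 (28) and a replicate block 1 (93). MEL1 alone gave 19 (18 risen and 1 fallen, beside 757 of all genes), and the strongest peak of each gene alone 1 (106). From S4 to S6 (3 genes), no cell line gave 1 (149 of all genes), H1 alone 8 (1 risen and 7 fallen, beside 745) and MEL1 alone 16 (14 risen and 2 fallen, beside 1248). For m6A, the S3 to S4 step (4 peaks) gave 7 with DESeq2, 10 with a joint TMM scaling, 101 in H1 alone and 17 in MEL1 alone. Of all peaks the same fits called 2020, 1724, 12059 and 2045. The S4 to S6 step (10 peaks) gave 18 with DESeq2 and 93 in H1 alone, beside 3449 and 11043 of all peaks. Against S0, where no m6A peak was called, H1 alone gave 8 and MEL1 alone 11 at S3, beside 1241 and 2278 of all 26104 peaks. At S6, DESeq2 gave 5, H1 alone 11 and MEL1 alone 14, beside 1573, 1848 and 2789 of all peaks. Leaving out both MEL1 S4 preparations, an alternative chosen after seeing the data, gave 2 genes and 34 peaks from S3 to S4, beside 104 of all genes and 5309 of all peaks. From S4 to S6 it gave 1 gene and 30 peaks, beside 183 and 5180. The sign turned for SPRY2 at S6 against S0 in H1 alone (-0.20) and for the NOTCH3 peak at 3545 from S4 to S6 in MEL1 alone (0.20). The causes were not tested.

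With 1 library left out, 21 to 27 genes were called at S3 against S0, 1 to 3 from S3 to S4, 1 to 5 from S4 to S6 and 23 to 28 at S6 against S0. Line differences ranged over 21 to 27, 8 to 15 and 18 to 22. Peaks ranged over 1 to 14 from S3 to S4 and 1 to 18 from S4 to S6, with 0 against S0. Over all stage calls, 464 of 512 values under other settings kept their direction and their side of the threshold, as did 110 of 110 line differences and 96 of 112 m6A values. With 1 library left out these were 399 of 448, 397 of 440 and 51 of 112. By label, same-numbered replicates share only a number. Their deviations correlated across stages at -0.0078 to 0.052 in H1 and at 0.066 to 0.13, always above 0, in MEL1. The replicate block gave 24, 1, 2 and 24 genes for the 4 stage comparisons (the calls of GAS1, HES4, JAG2 and NUMBL from S3 to S4 and of NOTCH1 from S4 to S6, at 1.73 with an adjusted p of 0.128, were lost) and 26, 11 and 22 line differences. With the RNA preparation as a block, m6A gave 0, 3, 9 and 0 peaks, and beside the 3 calls lost that the text names it ended none of the others. Of the 9 peaks from S4 to S6, 8 were also called without the block. Joint scaling moved the median m6A change of all peaks to -0.36 from S3 to S4 and 0.19 from S4 to S6, and DESeq2 to 0.12 and -0.16. For FGF9, FGFR1 and SPRED3, which held few reads and were not called, a difference may not be detectable at this depth.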
